A study of Mus musculus with 6 samples.

Results

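Of the genes well expressed in wildtype late juvenile testis, 197 were present at no more than 50% of their wildtype level in the *Adad2* mutant. These genes were chosen by their measured levels. A gene had to average at least 10 CPM (a gene's expected counts per 1000000 of its testis) in wildtype, to average at most 50% of that in the mutant, and to have its highest mutant value below its lowest wildtype value. Such a lack of overlap was common on its own, since 2235 of the well-expressed genes, or 20.2%, were lower in every mutant testis than in any wildtype testis. The selected genes made up 197 of the 42096 genes listed and 1.78% of the 11062 genes that reached 10 CPM in wildtype. They are called the halved genes here. Because the fall defined them, its size is given as a description, and a test of it on the same testes is no support for it. The RNA came from whole testes of C57Bl6J mice at 25 dpp (days post-partum), 3 wildtype and 3 *Adad2* mutant, sequenced as 100 bp paired-end reads. The labels give the genotype of the latter only as *Adad2* mutant. By the study's methods, its *Adad2* mutants carried a global CRISPR allele, em3, the only one of several alleles taken further. The study lists the late juvenile mutant testes it sequenced as em3 homozygotes and reports that ADAD2 protein was lost with this allele. The mice carried no transgene or treatment that the labels name. Each testis is a sample of its own, and the labels do not say whether animals were littermates, so p-values measure the spread between these testes.

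A testis at this age holds germ cells of the first wave of spermatogenesis, from dividing spermatogonia through meiotic spermatocytes to round spermatids, beside Sertoli cells and other somatic cells. The wave is still advancing at 25 dpp, and the most mature germ cells are the most recently formed. ADAD2 is a germ cell protein with a double-stranded RNA binding motif and an adenosine deaminase domain, and it is made in the testis. In RNA from a whole testis, fewer cells of a type and less RNA per cell cannot be told apart. The identifiers are those of an extended testis transcriptome, and the tables used here do not pair them with gene symbols. The roles of the halved genes, the state of *Adad2* and markers of testicular cell types were therefore not analysed here, and neither the genotype nor the tissue label was checked on a named gene. Apart from the halved gene with the largest fold and the halved gene with the highest wildtype level, genes are given by rank.

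The testes held between 16133264 and 22179778 expected counts. The smallest totals were in wildtype replicates 1 and 2. No pair of testes of one genotype agreed within counting noise (chi-square over its degrees of freedom from 3.28 to 16.6, largest between wildtype replicates 1 and 2). Between genotypes the same measure ran from 11.7 to 26.7. Wildtype replicates 1 and 2 thus differed more than some pairs of unlike genotype, such as wildtype replicate 1 and mutant replicate 1 at 13.3. The sample identifiers open with 610 in replicate 1 of both genotypes, with 722 in wildtype replicates 2 and 3, and with 709 in mutant replicates 2 and 3. What these numbers stand for is not given in the sources used here, and apart from 610 they cannot be told apart from genotype.

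Of all expected counts, the halved genes held 0.626% ± 0.134 in the wildtype group (SD, n = 3) and 0.247% ± 0.0192 in the mutant group (SD, n = 3). In order of replicate, the share was 0.771%, 0.508% and 0.600% for wildtype testes. For mutant testes it was 0.250%, 0.227% and 0.265%. The wildtype testes were thus much less alike than the mutant testes, and the lowest of them still lay above all mutant testes.

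Most falls were close to the limit of the selection. The median fold of wildtype over mutant was 2.41, with quartiles at 2.16 and 2.99 and a maximum of 17.1. The fold was under 2.5 in 106 genes, from 2.5 to under 4 in 75 and 4 or more in 16. Of the latter, 5 were at least 8-fold lower. The lowest wildtype value was at least 2-fold above the highest mutant value in 66 of the 197 genes, and the median of this gap was 1.82-fold.

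**Figure D1:**
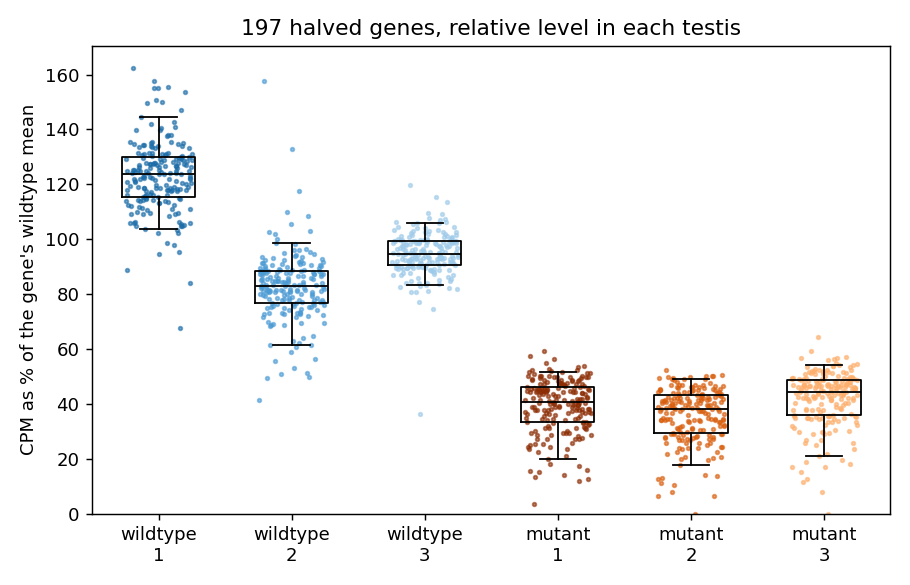
Level of each of the 197 halved genes in each testis, in CPM as a percent of the gene's wildtype mean. Points are genes, boxes show the quartiles and median over genes, and whiskers reach from the 5th to the 95th percentile. In order of replicate, the medians are 124%, 82.9% and 94.6% for wildtype testes and 40.6%, 38.2% and 44.4% for mutant testes.

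Low wildtype abundance was common among them. Of the 197 genes, 90 averaged 10 to 20 CPM in wildtype, 75 averaged 20 to 50 CPM, 24 averaged 50 to 100 CPM and 8 averaged 100 CPM or more. As a share of all genes in the same band, these were 3.47%, 2.05%, 0.998% and 0.332%. The median wildtype level was 21.8 CPM, against 42.1 CPM in the other well-expressed genes. Within the halved genes, the median fold was 2.54 in the lowest band and 2.27 in the highest, which holds 8 genes. All of them met the limit of 50% by rule, so these medians do not show whether the fall depends on level.

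In the other direction, 7 well-expressed genes were at least 2-fold higher in the mutant with no overlap between genotypes. That count is limited by the minimum on the wildtype mean, and with the same minimum on the mutant mean in its place it was 10 of 10638 genes. The mutant mean lay below the wildtype mean in 62.0% of the 11062 well-expressed genes, and their median log2 ratio of mutant over wildtype was -0.06. The halved genes had a median log2 ratio of -1.27.

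The limits of the selection cut through a continuum of values. The genes nearest to the limit of fold were 2.002-fold lower inside it, falling from 22.2 to 11.1 CPM, and 1.999-fold lower outside it, falling from 23.1 to 11.6 CPM. Nearest to the limit of abundance were a gene at 10.1 CPM inside it and one at 9.88 CPM outside it. The requirement of no overlap removed 4 of 201 genes. In 1 of these, the wildtype mean was 29.4 CPM and the mutant mean 4.35 CPM, a 6.76-fold difference of means with overlapping testes.

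XLOC_051316 had the largest fall. Its level in replicates 1 to 3 was 20.5, 11.7 and 13.7 CPM in wildtype and 0.541, 0.956 and 1.19 CPM in mutant testes. These values came from 331.49, 194 and 294 expected counts in wildtype and from 12, 21 and 22 in the mutant. The 2 genotypes were far apart, with the lowest wildtype testis 9.82-fold above the highest mutant testis. The mean fell from 15.3 ± 4.63 to 0.897 ± 0.330 CPM (SD, n = 3 each), a fold of 17.1. Only 1 isoform of the gene had counts.

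XLOC_066163 had the highest wildtype level of the 197 genes. In replicates 1 to 3 it was measured at 222, 133 and 169 CPM in wildtype and at 78.2, 71.6 and 85.0 CPM in mutant testes. The mean fell from 174 ± 45.0 to 78.3 ± 6.71 CPM (SD, n = 3 each), a fold of 2.23. The wildtype testes were spread over a wide range, with replicate 1 highest and replicate 2 lowest, and the genotypes did not overlap. Its leading isoform held 52.3%, 55.3% and 53.0% of its counts in wildtype, and 41.2%, 53.3% and 40.7% in the mutant, shares that overlapped. The same order of wildtype testes was found in most of the halved genes.

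Among the other abundant genes, the gene with the third highest wildtype level fell from 149, 119 and 127 CPM in wildtype to 48.6, 45.1 and 43.8 CPM in the mutant. The gene with the second highest level stood near the limit of fold, at 159, 110 and 132 CPM in wildtype and 66.9, 60.5 and 72.3 CPM in the mutant. Their expected counts lay between 806.77 and 2842.4 in every testis. Wildtype replicate 1 was only 1.248-fold and 1.437-fold above replicate 2 in these genes, less than in most genes lower by at least 4-fold.

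**Figure D2:**
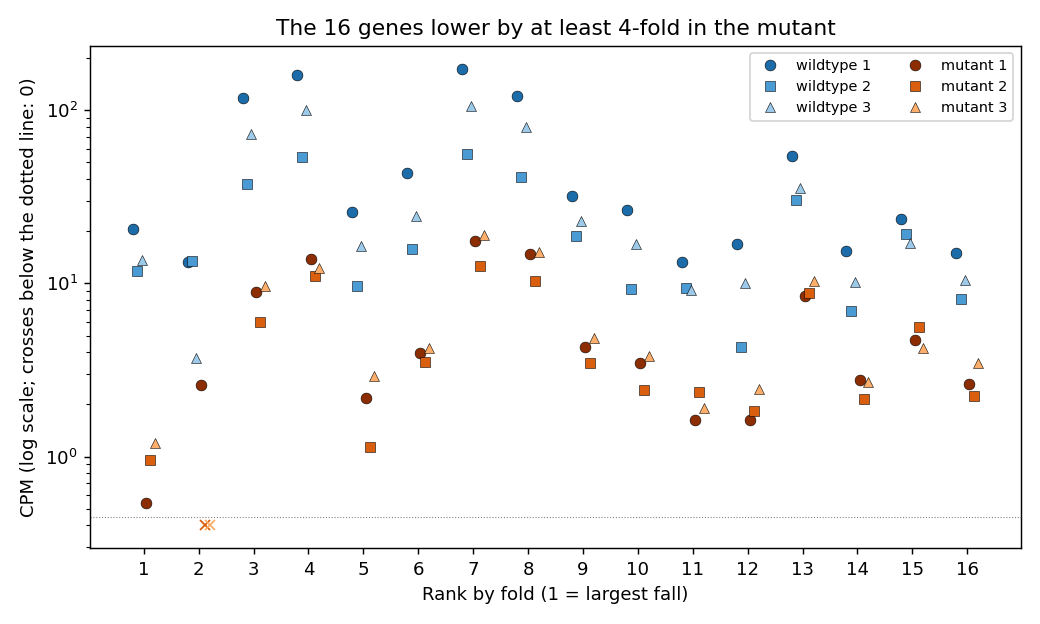
CPM on a log scale in each of the 6 testes for the 16 genes lower by at least 4-fold in the mutant, ordered by fold, with a marker for each testis and crosses for values of 0. The genes ranked 3 to 8 and 10 have wildtype replicate 1 at 2.69-fold to 3.15-fold above wildtype replicate 2, while the gene ranked 2 has mutant values of 2.59, 0 and 0 CPM.

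The gene ranked 2 by fold had uneven values within both genotypes. In replicates 1 to 3 it had 13.3, 13.5 and 3.70 CPM in wildtype and 2.59, 0 and 0 CPM in mutant testes. Wildtype replicate 3 lay only 1.43-fold above mutant replicate 1. Its fold of 11.8 therefore averages testes that differed widely.

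In edgeR's quasi-likelihood test across 21414 genes, with Benjamini-Hochberg adjustment and an adjusted p below 0.05 as the limit, 196 of the 197 halved genes were lower in the mutant. Of all genes tested, 8.27% were called lower. Since this test compares the same testes that defined the genes, nothing follows from the count of halved genes. The fitted log2 fold-change was -4.06 ± 0.29 for XLOC_051316 and -1.12 ± 0.16 for XLOC_066163 (standard errors), given as descriptions. The gene that was not called had 7.68, 17.9 and 8.50 CPM in wildtype and 5.99, 4.25 and 6.40 CPM in mutant testes. Its wildtype mean rested on replicate 2, the testis that was lowest in most other halved genes.

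The selection was repeated without each testis in turn, and the selected genes were read in the testis left out. That testis did not define the genes, but the testes of the other genotype, with which it was compared, did. The shares over all well-expressed genes carry no such selection, and the part of selection in the difference was not tested. Mutant replicate 1 was below all wildtype testes in 207 of the 209 genes selected without it, against 36.9% of all well-expressed genes. For mutant replicate 2 this held in 176 of 177 genes, against 35.6%, and for mutant replicate 3 in 218 of 221 genes, against 29.1%. The mutant testes left out thus carried the fall almost without exception. Their levels were a median of 2.41, 2.71 and 2.18-fold below the wildtype mean in the genes selected without them, whereas over all well-expressed genes these medians were 1.05, 1.04 and 1.03.

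The same held, with more spread, for wildtype testes. Wildtype replicate 3 was above all mutant testes in 215 of the 215 genes selected without it, against 47.0% of all well-expressed genes. For wildtype replicate 2 the count was 244 of 246 genes, against 53.2%. For wildtype replicate 1 it was 126 of 134 genes, against 32.2%. The sizes differed more than the directions. The testis left out was at least 2-fold above the mutant mean in 88.8% of the genes for replicate 1, in 76.3% for replicate 3 and in 43.9% for replicate 2.

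**Figure D3:**
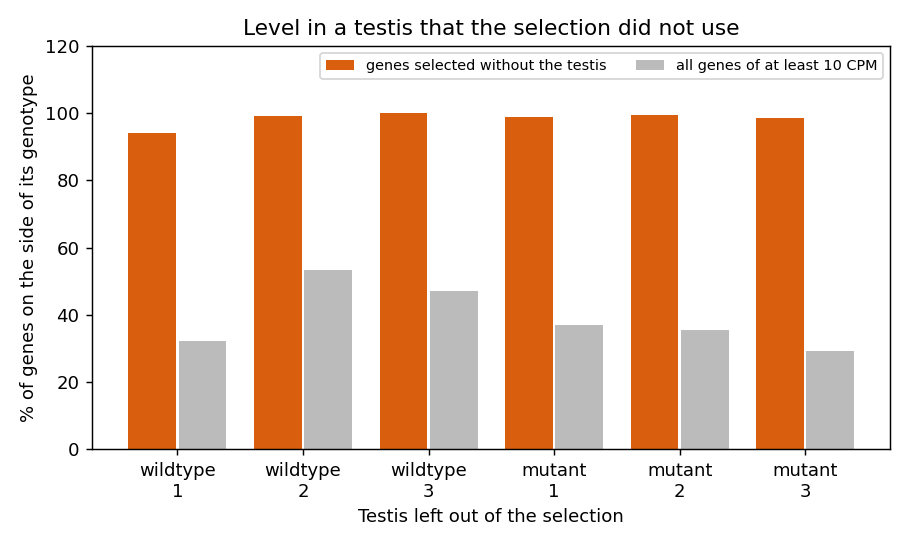
Percent of genes in which a testis lay on the side of its own genotype, for each of the 6 testes left out of the selection. Orange bars are the genes selected without that testis, from 94.0% to 100.0%, and grey bars are all genes of at least 10 CPM in the remaining wildtype testes, from 29.1% to 53.2%.

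The halved genes also shared an order among wildtype testes. Wildtype replicate 1 was the highest of the 3 wildtype testes in 184 of the 197 genes, or 93.4%, against 34.5% of the other well-expressed genes. Wildtype replicate 2 was the lowest in 166 genes, or 84.3%, against 33.4%. The selection bears on this order, since a high testis raises the wildtype mean. In the 134 genes selected without wildtype replicate 1, that testis was the highest in 109, or 81.3%, against 33.9% of the other well-expressed genes. In the 246 genes selected without wildtype replicate 2, that testis was the lowest in 212, or 86.2%, against 34.0%. Those genes were chosen for high values in replicates 1 and 3, which itself favours a low place for replicate 2. This last count is therefore not free of the selection. Among all 197 halved genes the full order, with replicate 1 above 3 above 2, was found in 162 genes, or 82.2%, against 25.0% of the others. The median log2 difference of wildtype replicate 1 over replicate 2 was 0.58 in the halved genes and -0.06 in the others. Genes were not treated as independent replicates, so no p is given. Wildtype replicate 1 had the smallest library and replicate 2 the next smallest, and the part of library size in this order was not tested.

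Mutant testes showed an order of their own, but a weaker one. Mutant replicate 3 was the highest mutant testis in 127 of the 197 genes, or 64.5%, against 41.4% of the other well-expressed genes. Mutant replicate 2 was the lowest in 144 genes, or 73.1%, against 33.6%. The median log2 difference of mutant replicate 3 over replicate 2 was 0.24 in the halved genes and 0.01 in the others. Mutant replicate 1, which shares its identifier number with wildtype replicate 1, was the highest mutant testis in 26.4% of the halved genes, close to the 27.8% of the others. Wildtype replicate 1 is also the only wildtype testis outside number 722, and the part of this number in its levels was not tested.

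The difference between wildtype testes was set beside the fold of the mutant in a way that used each testis once. Well-expressed genes were binned by the log2 ratio of the mutant mean over wildtype replicate 3, and the log2 difference of wildtype replicate 1 over replicate 2 was read in each bin. In the 45 genes with a ratio under -1.5, of which 44 were halved genes, the median difference was 0.81. It was 0.51 in the 130 genes from -1.5 to -1, of which 122 were halved genes, and 0.26 in the 537 genes from -1 to -0.5, of which 31 were halved genes. The difference between wildtype testes was therefore larger in genes with a larger fall.

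The relation did not run in one direction over all genes. In the 1402 genes with a ratio from -0.5 to -0.25, none of them halved, the median difference was -0.27. In the 175 genes with a ratio of 0.5 or more, higher in the mutant, it was 0.42. Genes slightly lower in the mutant and the halved genes thus differed in opposite directions between the same wildtype testes. Across the 197 halved genes, Spearman's rho of the 2 log2 ratios was -0.37 and Pearson's r was -0.54, given as a description across genes that share all 6 libraries and were selected on them. In the 10865 other well-expressed genes the sign was the opposite, with a rho of 0.40 and an r of 0.32.

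**Figure D4:**
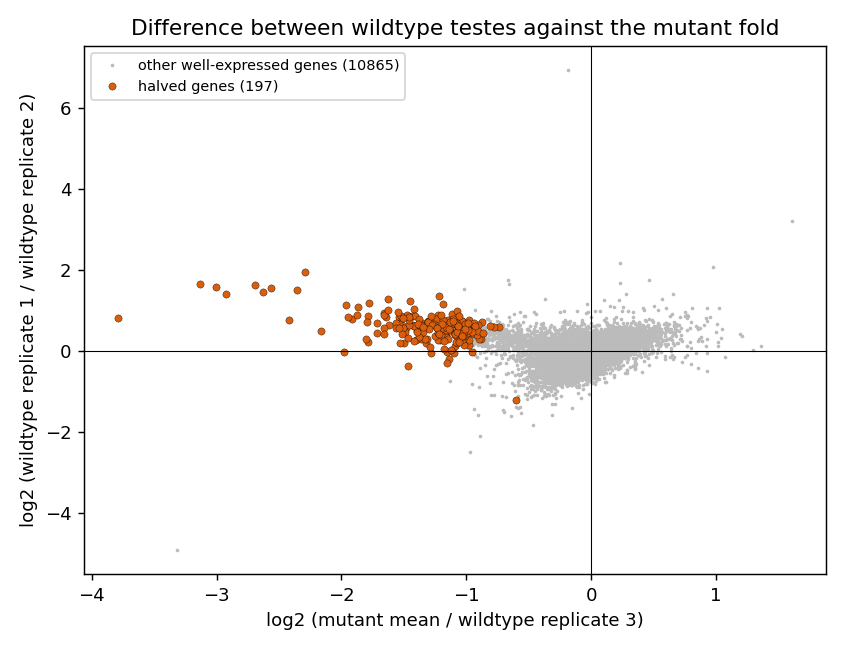
Log2 difference of wildtype replicate 1 over wildtype replicate 2 (vertical) against the log2 ratio of the mutant mean over wildtype replicate 3 (horizontal), each with 0.1 CPM added, for the 197 halved genes in orange and 10865 other well-expressed genes in grey. Of the halved genes, 188 lie above 0 on the vertical axis.

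A small group of halved genes had the steepest differences between wildtype testes. This group, picked after its values were seen, holds the 17 genes in which wildtype replicate 1 was at least 2-fold above wildtype replicate 2. In order of replicate, its median levels were 149%, 59.0% and 95.5% of the wildtype mean for wildtype testes. For mutant testes they were 25.3%, 19.7% and 25.0%. Wildtype replicate 3 lay between the other wildtype testes in all 17 genes, and in 145 of the other 180 halved genes. Mutant replicate 2 was the lowest mutant testis in 16 of the 17 and in 128 of the 180. The group had a median fold of 4.29 against 2.35 in the other 180 halved genes, and it held 9 of the 16 genes that were at least 4-fold lower. Measured without wildtype replicates 1 and 2, as wildtype replicate 3 over the mutant mean, the median folds were 4.02 and 2.25. The selection bears on both comparisons of folds. A gene with a low wildtype replicate 2 is a halved gene only if all its mutant values are lower still. The part of selection in these folds was not tested. Among all well-expressed genes, 45 had such a difference between these wildtype testes, and 37.8% of them were halved genes.

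The genes ranked 3, 4 and 7 by fold were in this group and were among the more abundant halved genes. The gene ranked 3 was at 118 CPM, 37.4 CPM and 72.7 CPM in wildtype and at 8.93, 5.97 and 9.66 CPM in mutant testes. The gene ranked 4 was at 161, 53.5 and 100.0 CPM in wildtype and at 13.8, 10.97 and 12.2 CPM in mutant testes. The gene ranked 7 was at 174, 55.8 and 107 CPM in wildtype and at 17.6, 12.6 and 19.1 CPM in mutant testes. The 3 genes went up and down together over the wildtype testes, and the mutant testes lay at least 2.92-fold below the lowest wildtype testis in each. Their identifiers lie within 4 consecutive numbers. Each had a single isoform with counts, and whether they share sequence, and so reads, was not tested.

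Elsewhere most halved genes had no other halved gene close by in the list of identifiers. Of the 197 genes, 19 had another halved gene within 5 identifier numbers, and 10 had one at the next number. No such count was made for other sets of genes, so whether these numbers are high or low was not tested. The largest run, of 4 genes, held the 3 genes above and a gene at 59.5, 42.9 and 45.1 CPM in wildtype and 24.0, 20.8 and 26.7 CPM in mutant testes. That gene had a fold of 2.06 and a flatter order of wildtype testes than its neighbours by number. The tables give no positions, so distance in the genome was not analysed here.

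The isoform table allowed the fall to be followed inside each gene. Isoforms are the alternative transcripts of a gene, and an isoform's expected count depends on how reads common to several transcripts were shared. Of the 197 genes, 64 (32.5%) had a single isoform with counts, against 15.5% of the other well-expressed genes, and the median number was 2 against 4. The difference in single-isoform genes was also present within bands of wildtype level, with 34.4% against 23.3% at 10 to 20 CPM and 33.3% against 16.5% at 20 to 50 CPM.

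In the genes with several isoforms, most isoforms of appreciable level were lower too. These genes had 198 isoforms averaging at least 5 CPM in wildtype, of which 170 were themselves at no more than 50% of wildtype without overlap between genotypes. Over all well-expressed genes with several isoforms, 2.97% of such isoforms met that criterion. Only 3 of the 198 isoforms kept 80% or more of their wildtype level. Since the count of a gene is the sum of its isoforms, these counts are not independent of the selection. The 198 isoforms belonged to 127 genes, of which 56 had 2 or more of them. In the rest a single isoform was read, so its fall largely repeats that of the gene.

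The share of a gene's counts on its leading isoform, the isoform with the largest mean over the 6 testes, was not used by the selection. It was tested with limma on the log2 ratio of the leading isoform to the other isoforms, with 0.5 added to each, across 14414 genes. None of the 133 halved genes tested passed an adjusted p below 0.05, where 0.111% of all genes tested did, and 25 of the 133 had an unadjusted p below 0.05. Of the 9178 other well-expressed genes tested, 978 had an unadjusted p below 0.05. Where the other isoforms had almost no counts, the added 0.5 makes this ratio follow the gene's own level, which the selection used. This applied to some of the 25 genes. With at least 10 counts on average on the other isoforms, 22 of 120 halved genes and 966 of 8795 others had such a p. The median size of the log2 difference was 0.53 in the 133 halved genes and 0.23 in the 9178 others. Halved genes had lower levels, with a median of 21.8 CPM in wildtype against 42.1 CPM, and ratios from fewer counts are noisier. The part of count depth in these sizes was not tested. The share did not overlap between genotypes in 25 of the 120 halved genes whose other isoforms averaged at least 10 counts, or 20.8%, against 17.5% of all well-expressed genes read in the same way. It was lower in the mutant in 17 of these genes and higher in 8, or 14.2% and 6.67% of the 120. In the other well-expressed genes it was lower in 7.2% and higher in 10.2%, a split in the other direction that was not tested against the first.

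**Figure D5:**
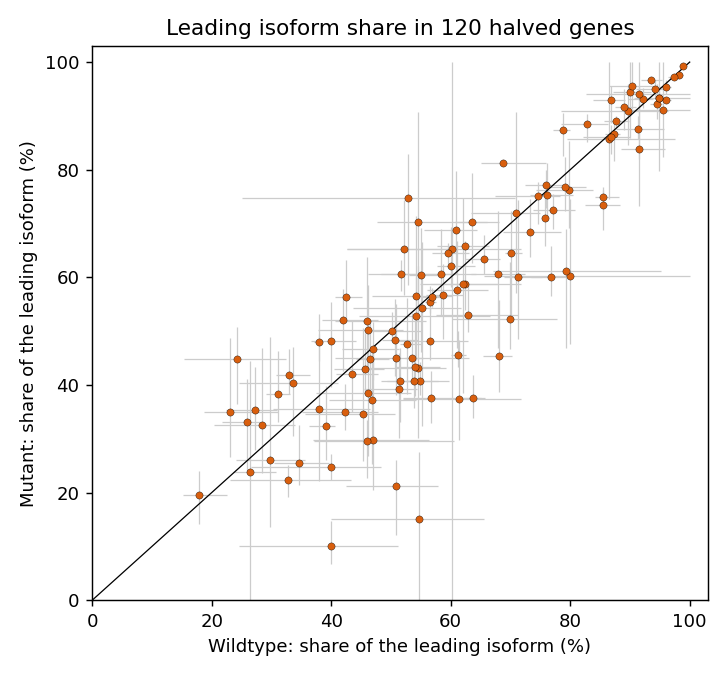
Share of a gene's counts on its leading isoform, in percent, in wildtype (horizontal) and mutant (vertical) testes, for the 120 halved genes whose other isoforms averaged at least 10 counts. Points are means of 3 testes and bars run from the lowest to the highest testis, and the line marks equal shares. The median difference of mutant minus wildtype was -1.56 percentage points, and 6 genes lie at least 20 points below the line and 2 at least 20 points above it.

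A few genes lost one isoform far more than the rest, as values rather than as calls. In the gene ranked 109 by fold, the leading isoform was at 13.0, 3.32 and 7.78 CPM in wildtype and at 1.15, 0.707 and 0.560 CPM in mutant testes. The other isoforms of that gene together were at 12.4, 10.3 and 9.81 CPM in wildtype and at 6.67, 7.21 and 7.84 CPM in mutant testes. The leading isoform was thus 9.97-fold lower, far more than the others together, and the share went from 39.9% ± 13.9 to 10.1% ± 4.16 (SD, n = 3 each, adjusted p = 0.296 from limma).

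In the gene ranked 191, the leading isoform was at 24.5, 16.8 and 14.4 CPM in wildtype and at 7.25, 4.35 and 5.06 CPM in mutant testes. Its other isoform was at 9.61, 11.0 and 13.3 CPM in wildtype and at 7.76, 10.3 and 9.75 CPM in mutant testes, so that the genotypes overlapped. The fall of this gene therefore lay on its leading isoform in these counts, with an adjusted p of 0.433 from limma for the share. The gene was 1 of 3 genes, of 120, in which the leading isoform was at least 2-fold lower and the other isoforms together kept more than 80% of their wildtype level. In the remaining ones, ranked 177 and 181 by fold, the other isoforms averaged only 10.1 and 17.3 counts, near the minimum of 10. In 65 of the 120 genes both were at least 2-fold lower.

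In the gene ranked 12 by wildtype level, both parts were lower and the other isoforms more so. Its leading isoform was at 63.8, 53.1 and 52.6 CPM in wildtype and at 30.4, 27.0 and 32.1 CPM in mutant testes. Its other isoforms together were at 34.0, 16.9 and 28.2 CPM in wildtype and at 7.25, 6.13 and 7.32 CPM in mutant testes, a 3.82-fold difference against 1.89-fold for the leading isoform. In none of the 120 genes were the other isoforms at least 2-fold lower while the leading isoform kept more than 80% of its wildtype level. The share of the leading isoform went from 68.8% ± 6.18 to 81.2% ± 0.401 (SD, n = 3 each, adjusted p = 0.347 from limma). At 3 testes against 3, the smallest p that exact permutation allows for one gene is 0.1, so none is given.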

How the data were processed

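Whole-testis RNA of 3 wildtype and 3 *Adad2* mutant mice was analysed, grouped by the genotype in the labels and numbered within a genotype in accession order. The authors deposited expected counts per gene and isoform from RSEM, run sample by sample on a testis transcriptome that they had extended. The submitters' processing notes name GRCm38, and the RSEM version is not given in the sources used here. The authors' tables of EBSeq posterior probabilities and fold-changes were not used. The 92 spike-in rows were left out.

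CPM was the expected count over the column total, times 1000000. The test across genes used edgeR 4.0.16 (R 4.3.3) on rounded expected counts (filterByExpr, TMM, quasi-likelihood test, genotype as the only term), with standard errors derived from the test statistic. Isoforms were placed in genes by requiring consecutive isoforms to sum to the gene in all 6 testes, which left the end of 36 genes ambiguous. Shares were tested with limma 3.58.1 (trended prior) in genes with at least 10 counts in every testis. Adjusted p-values are Benjamini-Hochberg values over all genes tested. Tests were tried on simulated counts first. DESeq2 1.42.0, limma-voom, other scalings, filters and pseudocounts, each testis left out and, added after seeing the data, a block on the identifier number were tried as alternatives. The selection rule, members and tests were chosen with earlier results of these data known. By identifier, only the gene with the largest fold and the gene with the highest wildtype CPM were named, by rule. Planned lists of named genes and cell type markers were not analysed here, since identifiers are not paired with symbols in the tables used. No sequences are shown for the same reason.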

Additional observations from a re-analysis of the deposited data

How the results depend on the processing

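The number of halved genes, 197, stayed within 1.5 times its value with TMM scaling (174), median-of-ratios scaling (145) and with overlap of genotypes allowed (201). It was 314 with a minimum of 5 CPM and 107 with a minimum of 20 CPM, limits that are wider and narrower by construction. Leaving out each testis gave from 134 genes, without wildtype replicate 1, to 246, without wildtype replicate 2, and 120 of the former were among the 197. The median log2 ratio of the 197 genes, -1.27, ranged from -1.38 to -1.13 with each testis left out. It was -1.23 with TMM, -1.18 with median-of-ratios scaling and -1.57 in the 2 testes whose identifiers share a first number. Between 192 and 197 of the 197 genes were called lower with each testis left out, without a filter, with DESeq2 or limma-voom, and with scaling by upper quartile or by library size. The share of genes on the side of its genotype in the testis left out had a median of 99.1% and ranged from 94.0% to 100.0%, with the lowest for wildtype replicate 1, and the cause was not tested. No halved gene passed the limma test of isoform share with a pseudocount of 2, a minimum of 30 counts, the leading isoform taken from wildtype, or each testis left out, or with at least 10 counts on the other isoforms, an alternative added after seeing the data. In these fits between 19 and 28 of the genes had an unadjusted p below 0.05. With the identifier number as a replicate block beside genotype, added after seeing the data, 193 of the 197 genes were called lower by edgeR, and 833 instead of 1771 of all genes tested. In this blocked fit the genotype term rests on the 2 testes numbered 610, since the other numbers each occur in 1 genotype, and 2 degrees of freedom remain. The halved genes were selected on these testes, so the counts of calls say little about stability.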
